A study of Mus musculus with 4 samples.

Results

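Secreted regulators of Wnt signaling were followed across the cells of the mouse fracture callus. The 10 genes were taken by name from the 32285 genes counted in each library: the antagonists *Sfrp1*, *Sfrp2*, *Sfrp4*, *Frzb*, *Dkk2*, *Dkk3* and *Wif1*, the ligand *Wnt5a*, the agonist *Rspo3* and the feedback target *Axin2*. All 10 were detected, with between 1972 UMIs for *Wif1* and 152144 UMIs for *Sfrp2* in the cells kept. A UMI, or unique molecular identifier, stands for 1 captured mRNA molecule, and levels are given as CPM, the UMIs of a gene in a class of cells of 1 library, scaled to a total of 1000000 UMIs.

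The data are 4 single-cell RNA-seq libraries of fracture callus from wild-type C57BL/6J mice 3 months of age, with no transgene or Cre in any group. Control mice received vehicle and RA mice received K/BxN serum, which transfers an antibody-driven arthritis, and callus was taken at 4 or 7 days post fracture (dpf). Each library came from 1 pool of callus, 4 calluses per pool by the series description, although the methods of the study give a smaller n for each group and do not describe a pool. With 1 library per condition there was no replicate and no test between conditions, and library and condition cannot be told apart, so that every interval below is a 95% interval for counting error only.

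Wnt ligands bind Frizzled receptors together with LRP5 or LRP6 and stabilize β-catenin, which drives osteoblast differentiation and is kept in check while cartilage forms. Secreted Frizzled-related proteins (SFRPs, including FRZB, also called SFRP3) and WIF1 bind the ligands themselves, whereas Dickkopf proteins act at the LRP coreceptors. R-spondins raise the number of receptors on the cell surface, WNT5A signals mainly without β-catenin, and *Axin2* is switched on by β-catenin and limits it.

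Of the 10 genes, 5 have a promoter in the RefSeq table for GRCm38.p6 (*Axin2*, *Dkk2*, *Frzb*, *Sfrp2* and *Wif1*). The 250 bases before the annotated start are shown for the antagonists *Sfrp2* and *Dkk2*, whose levels set stromal classes and libraries apart below, and for *Axin2*, the target of the pathway. For these 3 the RefSeq start is also the start of the gene in the annotation of the counts, which is not so for *Frzb* and *Wif1*. Capitals mark matches on either strand to the core letters of known kinds of site. For TCF/LEF, the factors that carry β-catenin to DNA, these were CTTTGA and, as a second form, CTTTGT. The other letters searched were TGGGAA for RBPJ, the factor of the Notch pathway, AACAAT for SOX factors of cartilage, and ACCACA for RUNX factors of bone. A longer NF-κB motif was also searched, and was found in none of the 5 windows and in 1.41% of all windows. The general promoter elements were the GC box, with the letters GGGCGG, the box named CCAAT for its letters and the TATA box, searched as TATAAA.
Sfrp2, chr3:83766071-83766320, plus strand: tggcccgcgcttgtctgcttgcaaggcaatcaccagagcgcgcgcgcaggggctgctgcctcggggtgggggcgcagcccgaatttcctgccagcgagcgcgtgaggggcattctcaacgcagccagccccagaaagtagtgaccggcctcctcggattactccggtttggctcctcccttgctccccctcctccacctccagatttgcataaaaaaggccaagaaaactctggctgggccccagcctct
Dkk2, chr3:132085042-132085291, plus strand: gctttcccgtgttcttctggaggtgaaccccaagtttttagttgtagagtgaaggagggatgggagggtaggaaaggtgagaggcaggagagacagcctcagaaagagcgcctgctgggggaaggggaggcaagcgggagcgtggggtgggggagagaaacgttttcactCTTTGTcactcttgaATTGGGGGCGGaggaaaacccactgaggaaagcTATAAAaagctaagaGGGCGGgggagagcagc
Axin2, chr11:108920099-108920348, plus strand: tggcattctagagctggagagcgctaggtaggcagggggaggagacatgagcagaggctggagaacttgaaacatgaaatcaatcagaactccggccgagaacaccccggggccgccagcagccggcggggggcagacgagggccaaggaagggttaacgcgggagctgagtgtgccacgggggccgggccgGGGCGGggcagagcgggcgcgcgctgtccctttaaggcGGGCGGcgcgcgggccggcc
*Sfrp2* held none of these letters in its window. *Dkk2* held 1 match to CTTTGT, which 16.5% of 32851 such windows hold, 1 TATAAA match (12.4% of windows), 2 GC boxes (32.7%) and 1 CCAAT match on the other strand (33.8%), which lies directly against a GC box. *Axin2* held 2 GC boxes and no match to CTTTGA (13.8%) or CTTTGT. Such matches are descriptions of the letters and not of binding.

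Cells were grouped by marker genes into 12 classes, and the Wnt genes were left out of the genes used for clustering, so that their counts did not set the groups. The quality filter of the study left 25479 of 34038 barcodes, and any pair of libraries shared between 10 and 31 barcode sequences. The 5 mesenchymal classes held 8281 cells, or 32.5% of the kept cells: 2607 committed mesenchymal progenitor-like, 2571 fibroblast-like, 2351 fibroblast precursor-like, 408 osteochondral-like and 344 cycling mesenchymal-like cells. Tenocyte precursor-like cells (813) were kept apart. Osteochondral-like cells, with the cartilage collagen *Col2a1* at 20528 CPM, numbered 267 in control and 137 in RA at 7 dpf but 1 and 3 at 4 dpf, so no level is given for them at 4 dpf. Haematopoietic cells (10801) had low levels of these genes, and their counts are used as the level of free RNA, an assumption that was not tested. It is least certain for *Axin2*, since these cells held 7.32% of its UMIs. For the other genes they held between 0.434% (*Rspo3*) and 1.44% (*Frzb*).

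Most transcripts of these genes were mesenchymal. The 5 mesenchymal classes held between 79.6% (*Dkk2*) and 96.8% (*Sfrp1*) of the UMIs of 8 of the 10 genes. The exceptions were *Axin2*, with 64.9%, and *Wif1*, with 26.4%, since tenocyte precursor-like cells held 68.6% of all *Wif1* UMIs. *Frzb* was concentrated in a small class: osteochondral-like cells, 1.60% of the kept cells, held 80.2% of its UMIs. In haematopoietic cells the levels ran from 0 for *Frzb* in the RA library at 4 dpf (at most 0.0673 CPM by the 3 counts that a count of 0 allows) to 11.6 CPM for *Sfrp2* in the RA library at 7 dpf.

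**Figure D1:**
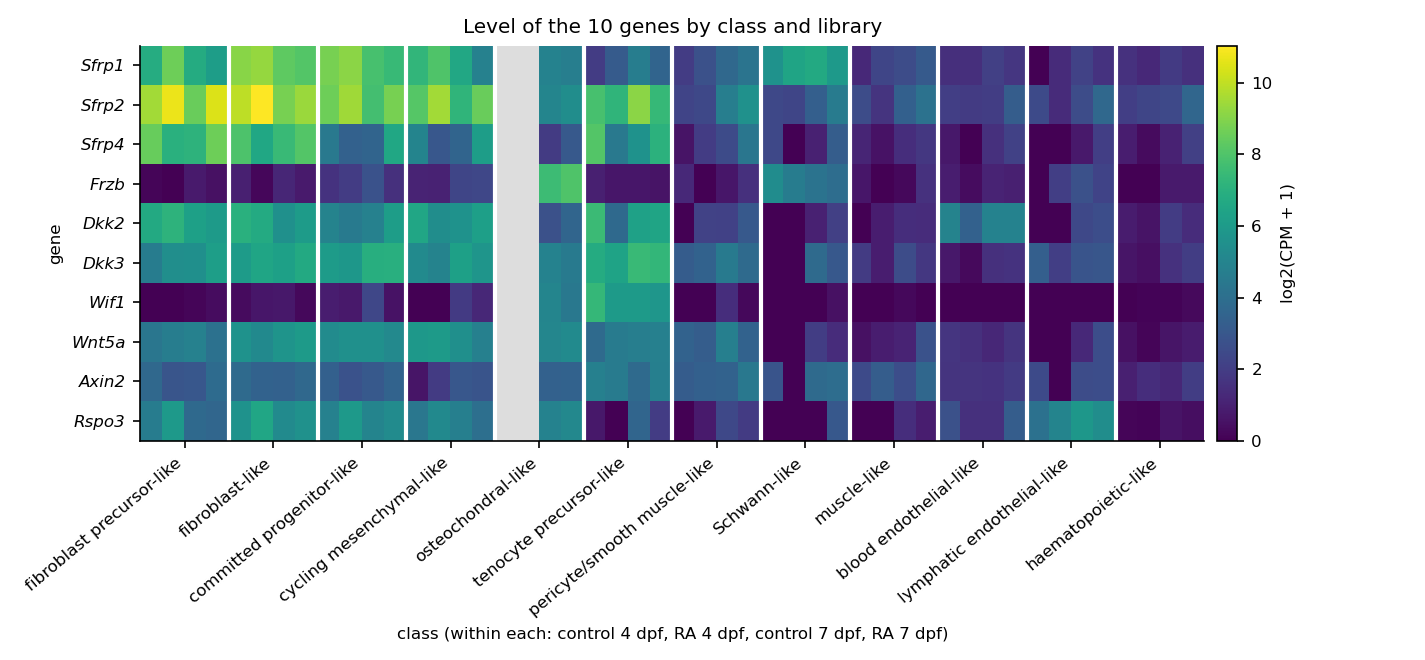
Level of each gene, as log2(CPM + 1), in each class and library, with 4 columns per class in the order control 4 dpf, RA 4 dpf, control 7 dpf, RA 7 dpf; gray marks fewer than 20 cells. *Sfrp1* and *Sfrp2* are bright in fibroblast-like, fibroblast precursor-like and committed progenitor-like cells. *Sfrp4* is bright in fibroblast-like and fibroblast precursor-like cells, *Frzb* in osteochondral-like cells and *Wif1* in tenocyte precursor-like cells.

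*Sfrp2* encodes a secreted Frizzled-related protein of mesenchymal progenitors and fibroblasts. In the 5 mesenchymal classes summed it was at 650.2 CPM in control and 1337 CPM in RA at 4 dpf, and at 275 CPM in control and 814 CPM in RA at 7 dpf. RA was therefore 2.06-fold above control at 4 dpf (95% interval 2.02 to 2.09) and 2.96-fold at 7 dpf (2.91 to 3.00). With the classes weighted equally the log2 ratio was 1.14 at 4 dpf and 1.05 at 7 dpf, against 1.04 and 1.56 for the sum. Within each condition the library at 7 dpf was below that at 4 dpf.

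Fibroblast precursor-like cells, the *Pi16*+ *Dpp4*+ cells from which other fibroblasts are thought to arise, held 43.5% of all *Sfrp2* UMIs. They made up 31.8% of mesenchymal cells in control and 21.9% in RA at 4 dpf, and 23.1% and 33.1% at 7 dpf. *Sfrp2* was there at 729 CPM in control and 1699 CPM in RA at 4 dpf, and at 371 and 1390.0 CPM at 7 dpf, a ratio of 3.75 at 7 dpf (3.65 to 3.85). The markers of the class were higher in the same library, with *Pi16* at 123 CPM in control and 489 CPM in RA and *Dpp4* at 47.8 and 147 CPM at 7 dpf, while at 4 dpf they were lower in RA (448 and 187 CPM for *Pi16*), and their part in the *Sfrp2* difference was not tested. With every cell thinned to 4000 UMIs, so that depth is equal, 81.5% of RA precursors had an *Sfrp2* UMI at 7 dpf, against 43.8% in control. In haematopoietic cells the thinned shares were 4.54% and 2.13%, with median depths of 11004 and 10796 UMIs per cell against 26720 and 24105 in the precursors.

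Other mesenchymal classes had the same direction at both times. Committed mesenchymal progenitor-like cells were at 391 CPM in control and 701 CPM in RA at 4 dpf, and at 209.9 and 432 CPM at 7 dpf. Fibroblast-like cells, marked by *Cxcl14* and *Abca8a*, were at 975 and 2105 CPM at 4 dpf and at 441 and 663 CPM at 7 dpf. Cycling mesenchymal-like cells were at 279 and 727 CPM at 4 dpf and at 148 and 368 CPM at 7 dpf. In the RA library at 4 dpf the highest of the 54 cycling cells held 358 of the 1332 *Sfrp2* UMIs. In each of these classes RA was above control beyond the counting intervals, which do not cover such spread between cells.

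Tenocyte precursor-like cells, marked by *Scx*, *Tnmd* and *Mkx*, had the opposite order. *Sfrp2* was at 554 CPM in control and 169 CPM in RA at 7 dpf, a ratio of 0.304 (0.285 to 0.325), and at 226 and 147 CPM at 4 dpf. A minority of cells carried these values: at 7 dpf the 10% of cells with the most held 72.6% of the *Sfrp2* UMIs of the class in control and 74.4% in RA, with medians of 1 and 0 UMIs per cell. At 4 dpf these shares were 89.3% in control and 87.7% in RA, with medians of 0. The highest cell held 183 UMIs in control and 78 in RA at that time. The fibroblast marker *Cxcl14* in this class was at 112 CPM in control and 278 CPM in RA at 4 dpf, and at 133 and 39.0 CPM at 7 dpf. Its part in the *Sfrp2* difference was not tested. *Scx* was at 253 and 299 CPM in the control and RA libraries at 7 dpf.

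*Sfrp4*, a secreted Frizzled-related protein with a role in cortical bone, differed between RA and control in opposite directions at 4 and 7 dpf. In the mesenchymal sum it was at 188 CPM in control and 60.4 CPM in RA at 4 dpf, but at 75.6 CPM in control and 245 CPM in RA at 7 dpf. RA was thus at 0.321 of the control level in early callus (0.302 to 0.341) and 3.24-fold above control in later callus (3.15 to 3.34). Within 4 of the 5 mesenchymal classes, all those with enough cells at 4 dpf, *Sfrp4* was lower in RA at 4 dpf and higher in RA at 7 dpf, and so it was in tenocyte precursor-like cells.

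In fibroblast precursor-like cells *Sfrp4* was at 352 CPM in control and 127 CPM in RA at 4 dpf, and at 139.6 and 388 CPM at 7 dpf. The 6 markers of that class had the same order. *Pi16* was at 448 and 187 CPM at 4 dpf and at 123 and 489 CPM at 7 dpf, and *Dpp4*, *Cd55*, *Sema3c*, *Cd34* and *Anxa3* too were each higher in both the control library at 4 dpf and the RA library at 7 dpf than in the other two. Their part in the *Sfrp4* difference was not tested.

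In tenocyte precursor-like cells *Sfrp4* was at 270.2 CPM in control and 20.9 CPM in RA at 4 dpf, from 827 and 36 UMIs, a ratio of 0.0772 (0.0537 to 0.108), and at 48.0 and 137 CPM at 7 dpf. A minority of cells carried the control value at 4 dpf: the 10% with the most held 85.0% of the UMIs. The highest cell held 142 UMIs, and the median was 0. In committed mesenchymal progenitor-like cells, which express *Postn* and *Aspn*, it was at 10.6 CPM in control and 94.4 CPM in RA at 7 dpf, a ratio of 8.87 (7.89 to 10.0), after 21.1 and 9.83 CPM at 4 dpf. *Pi16* in the same cells was at 2.80 and 8.76 CPM at 7 dpf. The 10% of these progenitors with the most *Sfrp4* held 90.5% of its UMIs in control and 70.1% in RA at 7 dpf, with medians of 0. In haematopoietic cells *Sfrp4* was at 1.09 CPM in control and 3.21 CPM in RA, the same direction at a lower level. After thinning, 17.9% of RA committed progenitors held an *Sfrp4* UMI, against 4.14% in control.

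**Figure D2:**
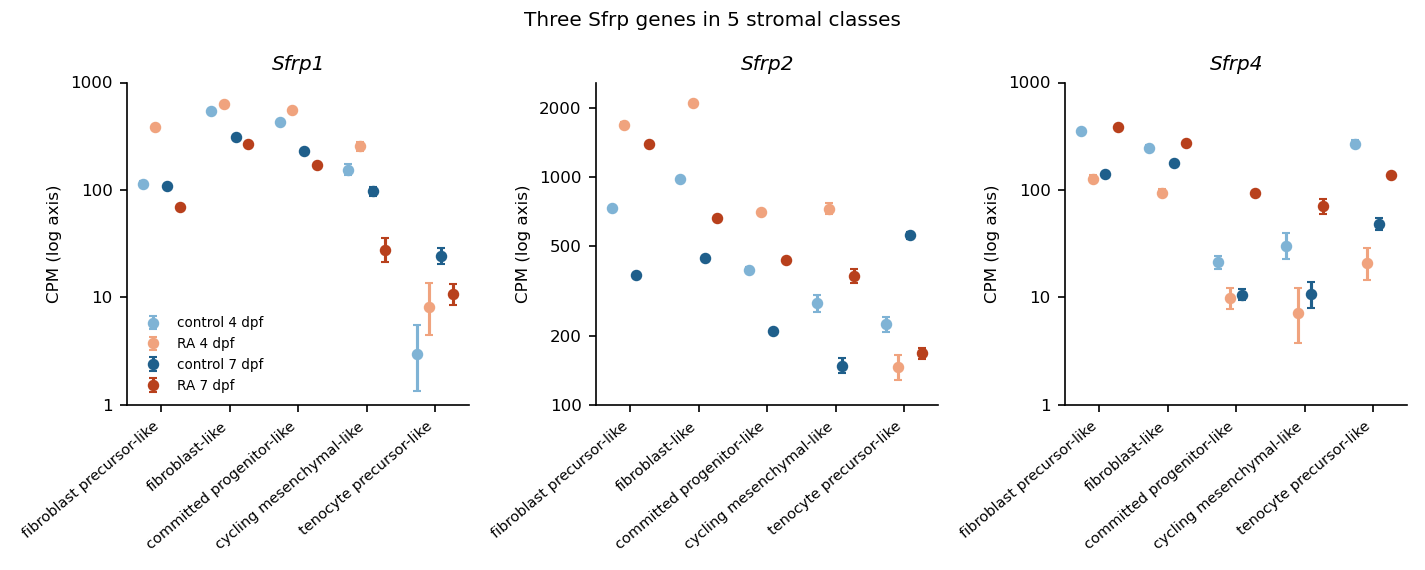
Level of *Sfrp1*, *Sfrp2* and *Sfrp4* (CPM, log axis) in 5 stromal classes; each point is 1 library and bars are 95% Poisson intervals. *Sfrp2* in tenocyte precursor-like cells has its highest point in the control library at 7 dpf (554 CPM), whereas in the other classes the control library at 7 dpf is the lowest.

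*Sfrp1*, which binds Wnt ligands and limits osteoblast survival, was high in fibroblast-like and committed progenitor-like cells. Fibroblast-like cells had 544 CPM in control and 629.9 CPM in RA at 4 dpf, and 314 and 268 CPM at 7 dpf. Committed progenitors had 432 and 552 CPM at 4 dpf, and 229 and 170.3 CPM at 7 dpf. Between 4 and 7 dpf the mesenchymal sum went from 343 to 192 CPM in control and from 511 to 154 CPM in RA, a ratio of 0.302 in RA (0.295 to 0.309).

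In fibroblast precursor-like cells *Sfrp1* was at 113 CPM in control and 383 CPM in RA at 4 dpf, a ratio of 3.40 (3.14 to 3.68), and at 109 and 69.1 CPM at 7 dpf. In the same cells at 4 dpf the fibroblast marker *Cxcl14* was at 73.8 CPM in control and 165 CPM in RA and the precursor marker *Pi16* at 448 and 187 CPM, and their part in the *Sfrp1* difference was not tested. After thinning, 46.8% of these cells in RA and 20.6% in control had a UMI at 4 dpf, against 0.890% and 0.926% of haematopoietic cells. Cycling mesenchymal-like cells had 154 CPM in control and 254 CPM in RA at 4 dpf, and 96.9 and 27.8 CPM at 7 dpf. At each time this was the order seen in the precursors. In the RA library at 4 dpf the cycling cell with the most *Sfrp1* held 124 of the 466 UMIs of its class. Schwann-like cells also carried *Sfrp1*, at 49.0 to 105 CPM over the 4 libraries, above the other named classes outside the mesenchyme.

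*Sfrp1* and *Sfrp2* were often found in the same cell. In thinned fibroblast-like cells of the control library at 7 dpf, 48.2% had *Sfrp1*, 39.9% had *Sfrp2* and 26.2% had both, where the product of the shares is 19.2%. In the RA library the values were 44.8%, 48.3%, 27.3% and 21.6%. For *Sfrp1* and *Sfrp4* in the control fibroblasts the share with both was 13.2% and the product 12.4%. Cells of 1 library differ in subtype and in RNA content, so these shares describe the class and test nothing.

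*Frzb*, an antagonist of cartilage, was a gene of the osteochondral-like class. It was at 186 CPM in control (177 to 196) and 255 CPM in RA (240.0 to 272) at 7 dpf, with a UMI in 80.5% and 83.2% of cells before thinning. In the mesenchymal sum the order was reversed, 21.8 CPM in control and 11.9 CPM in RA, a ratio of 0.543 (0.503 to 0.586). The class made up 8.87% of mesenchymal cells in control and 3.70% in RA, and within it the ratio was 1.37 (1.26 to 1.49). The share of the class and the level within it thus differed between the libraries in opposite directions.

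Clustered by themselves, osteochondral-like cells formed 8 groups, of which 1 met the rule for a chondrogenic name (97 cells, led by *Matn1* and *Clec3a*) and 1 for an osteogenic name (37 cells, with *Bglap*, *Dmp1* and *Mmp13* among its leading genes beside the neutrophil genes *S100a8* and *S100a9*). *Frzb* was at 217 CPM in control and 252 CPM in RA in the chondrogenic-like group. It was at 295 CPM in the osteogenic-like group in control (258 to 337), where RA had 11 cells, too few for a level. In the unnamed groups with at least 20 cells in a library, *Frzb* was at 50.2 to 217 CPM. The lowest of these values was that of RA cells in the group led by *Kcnq3* and *Ifitm5*, which had 109 CPM in control. A further group of 50 cells, 46 from control and 3 from RA, was led by the macrophage genes *Lyz2*, *Apoe* and *C1qa*, and its part in the *Frzb* ratio of the whole class was not tested. Outside this class *Frzb* was highest in Schwann-like cells, at 40.5 CPM in control and 23.5 CPM in RA at 4 dpf and 17.3 and 14.2 CPM at 7 dpf, from 6 to 35 UMIs per library.

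*Wif1*, which binds Wnt ligands outside the cell, was led by tenocyte precursor-like cells. It was there at 163 CPM in control and 63.2 CPM in RA at 4 dpf, and at 63.8 and 54.3 CPM at 7 dpf. The ratio of RA to control was 0.388 at 4 dpf (0.312 to 0.478). In osteochondral-like cells it was at 31.9 CPM in control and 20.3 CPM in RA, and in the osteogenic-like group of control cells at 87.8 CPM (67.9 to 112), above the 19.4 CPM of the chondrogenic-like group. The 4 blood endothelial-like and 4 lymphatic endothelial-like sums held no *Wif1* UMI, which allows up to 0.296 CPM in the shallowest blood endothelial library. The lymphatic sums were shallower, with 430488 to 1932881 UMIs against 10134727 in that library, so that a count of 0 there allows a higher level.

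**Figure D3:**
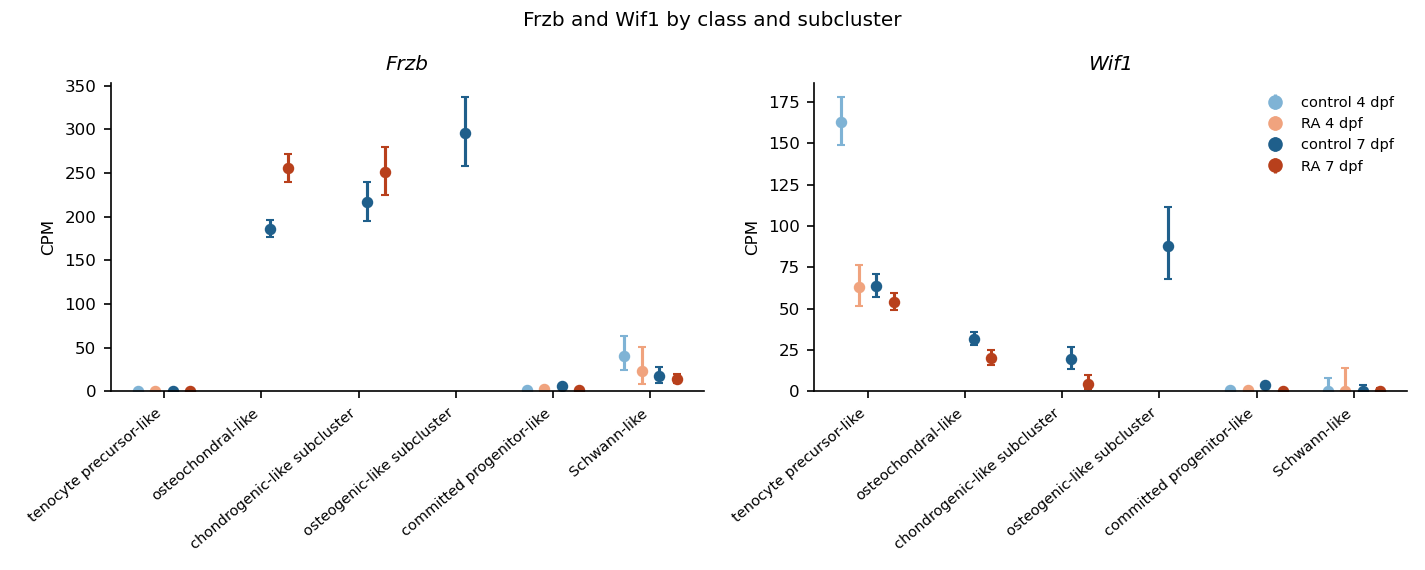
Level of *Frzb* and *Wif1* (CPM) by class and by the named subclusters of osteochondral-like cells; each point is 1 library with at least 20 cells, and bars are 95% Poisson intervals. *Frzb* reaches 295 CPM in the osteogenic-like subcluster (26 control cells) and stays under 1 CPM in tenocyte precursor-like cells, where *Wif1* reaches 163 CPM.

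*Dkk2*, a Dickkopf protein that acts at LRP coreceptors, had similar medians in fibroblast precursor-like (90.3 CPM), fibroblast-like (86.0 CPM) and tenocyte precursor-like cells (81.9 CPM), whose ranges over the 4 libraries overlapped. The tenocyte value was the least even. *Dkk2* was at 183 CPM in control and 12.8 CPM in RA at 4 dpf (7.99 to 19.3), from 559 and 22 UMIs, and at 78.5 and 85.3 CPM at 7 dpf. In this class *Scx* was at 272 CPM in control and 333 CPM in RA at 4 dpf, and *Mkx* at 221 and 294 CPM. The class markers *Fmod* (5675 and 7918 CPM) and *Thbs4* (7392 and 11679 CPM) were higher in RA too. *Tnmd* (1625 and 1174 CPM) and *Kera* (1733 and 695 CPM) were lower in RA. Markers of other cells were also higher in the RA library, with *Cd68* at 3.27 and 37.7 CPM, *Pecam1* at 19.0 and 41.7 CPM and *Cxcl14* at 112 and 278 CPM, and their part in the low *Dkk2*, *Sfrp4* and *Wif1* values of these 93 cells was not tested. In committed progenitors *Dkk2* was at 28.0 CPM in control and 70.6 CPM in RA at 7 dpf, a ratio of 2.52 (2.32 to 2.74), after 29.8 and 22.7 CPM at 4 dpf.

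*Dkk2* was also present in endothelium. Blood endothelial-like cells held 8.31% of its UMIs, nearly all in the cluster led by *Cldn5*, *Gpihbp1* and *Sox17* which has the arterial marker *Sox17* among its leading genes. In that cluster it was at 53.4 CPM in control and 18.3 CPM in RA at 4 dpf, and at 53.8 and 62.8 CPM at 7 dpf, while in the cluster led by *Selp* and *Lrg1* it was at 1.73 to 3.75 CPM. A minority of cells carried the values of the *Cldn5* cluster. Before thinning, 17.7% of its cells in control and 9.73% in RA had a *Dkk2* UMI at 4 dpf. The highest control cell at that time held 77 of the 381 UMIs. The low value of the RA library at 4 dpf was thus seen in tenocyte precursor-like cells and in endothelium. It was also seen in cycling mesenchymal-like cells, at 90.6 CPM in control and 41.5 CPM in RA. Smaller differences in that direction were found in fibroblast-like cells (130 and 107 CPM) and the mesenchymal sum (84.6 and 74.8 CPM). Fibroblast precursor-like cells had the opposite order (104 CPM in control, 139.5 CPM in RA).

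*Dkk3*, a divergent family member whose action on Wnt signaling is not settled, was highest in tenocyte precursor-like and committed progenitor-like cells at 7 dpf. Tenocyte precursor-like cells had 110.4 CPM in control and 84.0 CPM in RA at 4 dpf, and 178 and 157 CPM at 7 dpf. Committed progenitors had 66.4 and 56.7 CPM at 4 dpf, and 122 and 124 CPM at 7 dpf. Fibroblast-like cells had 65.8 and 87.8 CPM at 4 dpf, and 76.0 and 103 CPM at 7 dpf. No class of the mesenchyme reached a 2-fold difference between RA and control, and the mesenchymal sum was higher at 7 dpf than at 4 dpf in both conditions, 1.61-fold in control (1.52 to 1.71) and 1.54-fold in RA (1.45 to 1.63).

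*Wnt5a*, the most abundant Wnt ligand transcript of these cells, differed little between libraries in the mesenchymal sum, but more in single classes. The mesenchymal sum was at 36.4 CPM in control and 40.1 CPM in RA at 4 dpf, and at 41.6 and 37.4 CPM at 7 dpf. It was spread over cycling mesenchymal-like (27.3 to 63.3 CPM), fibroblast-like (36.8 to 64.6 CPM), committed progenitor-like (35.7 to 46.2 CPM) and osteochondral-like cells (32.9 and 37.8 CPM), whose ranges overlap. Within RA, cycling mesenchymal-like cells went from 63.3 CPM at 4 dpf to 27.3 CPM at 7 dpf, and fibroblast-like cells from 36.8 to 64.6 CPM. In control the same classes went from 58.1 to 44.9 CPM and from 47.9 to 51.0 CPM. In blood endothelial-like cells *Wnt5a* stayed between 1.31 and 2.28 CPM, and in haematopoietic cells between 0.112 and 0.803 CPM.

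*Rspo3*, an R-spondin that amplifies Wnt signaling, was higher in RA at 4 dpf. The mesenchymal sum was at 31.4 CPM in control and 67.8 CPM in RA at 4 dpf, a ratio of 2.16 (1.98 to 2.35), and at 27.8 and 31.0 CPM at 7 dpf. Fibroblast precursor-like cells had 23.6 and 59.8 CPM at 4 dpf, and 12.7 and 11.4 CPM at 7 dpf. Fibroblast-like cells had 48.0 and 92.0 CPM at 4 dpf, and 38.5 and 46.6 CPM at 7 dpf. The early RA library thus stood above the other 3 in both classes. In the precursor class *Cxcl14* was also higher and *Pi16* lower in that library than in control at 4 dpf (165 against 73.8 CPM and 187 against 448 CPM), and their part in the *Rspo3* difference was not tested.

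Outside the mesenchyme *Rspo3* was highest in lymphatic endothelial-like cells among the named classes. Lymphatic endothelial-like cells had 16.3 CPM in control and 31.0 CPM in RA at 4 dpf, from 7 and 20 UMIs, and 55.8 and 41.4 CPM at 7 dpf, from 80 UMIs each. In blood endothelial-like cells *Rspo3* was at 5.73 CPM in control and 1.87 CPM in RA at 4 dpf, and at 1.93 and 8.41 CPM at 7 dpf. Most of it was in the *Selp*+ cluster, at 11.9 and 3.88 CPM at 4 dpf and 3.75 and 15.3 CPM at 7 dpf. Before thinning, 2.43% to 8.28% of the cells of that cluster had an *Rspo3* UMI. The order of the 4 libraries in endothelium was therefore not that of the mesenchyme.

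*Axin2*, the readout of β-catenin activity, was low everywhere. The mesenchymal sum was at 10.9 CPM in control and 7.00 CPM in RA at 4 dpf, and at 8.10 and 11.9 CPM at 7 dpf. The highest class was tenocyte precursor-like cells, with 26.8 and 23.2 CPM at 4 dpf and 13.2 and 26.4 CPM at 7 dpf. In fibroblast precursor-like cells it was at 12.4 and 6.42 CPM at 4 dpf and 7.02 and 13.6 CPM at 7 dpf, the same order of libraries as *Sfrp4*, with a ratio of 0.517 at 4 dpf (0.335 to 0.778) and 1.94 at 7 dpf (1.58 to 2.39). The class marker *Pi16* was there at 448 and 187 CPM at 4 dpf and at 123 and 489 CPM at 7 dpf. Its part in the *Axin2* difference was not tested. Haematopoietic cells had *Axin2* at 0.951 to 2.99 CPM, and with few UMIs per cell the thinned shares of *Axin2* (2.59% to 4.59% of mesenchymal cells) are near the level of 1 UMI and give no order.

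**Figure D4:**
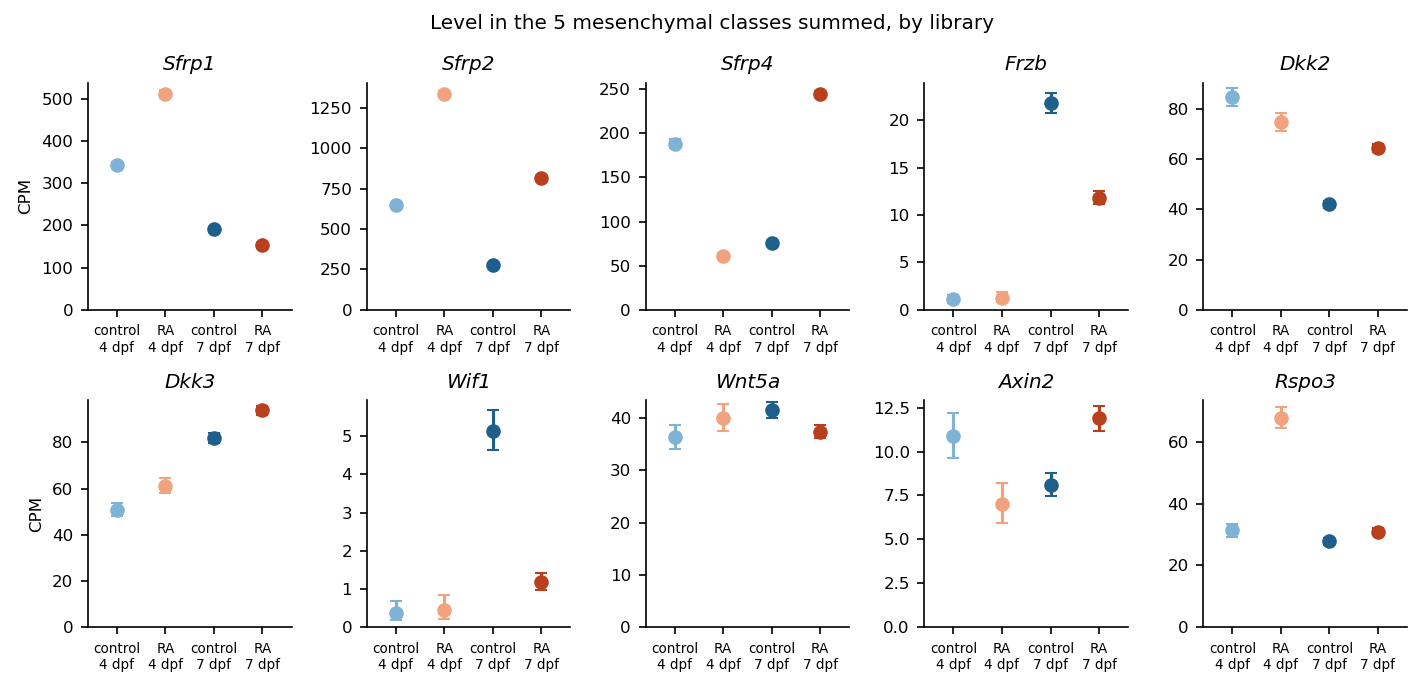
Level of each gene (CPM, axes from 0, a separate scale for each gene) in the 5 mesenchymal classes summed; each point is 1 library and bars are 95% Poisson intervals. *Sfrp2* is higher in RA at both times, *Sfrp4* is lower in RA at 4 dpf (60.4 against 188 CPM) and higher at 7 dpf (245 against 75.6 CPM), and *Wnt5a* stays between 36.4 and 41.6 CPM.

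To read these differences against all genes, a gene was called where its levels, each with 1 CPM added, differed at least 2-fold between 2 libraries, with at least 50 UMIs over both. A gene below 1 CPM in both libraries cannot be called by this rule. The shares over all genes include such genes and are lowered by them, and they are not matched to the described genes in level. The 10 genes and the Wnt lists were chosen with earlier results of these data known, so the shares do not test for an excess among them. For RA against control at 7 dpf in the mesenchymal sum, 3 of the 10 genes were called (*Sfrp2* and *Sfrp4* higher in RA, *Wif1* lower), and 2.87% of 17132 genes were. At 4 dpf, 3 of the 9 genes with enough UMIs were called (*Sfrp2* and *Rspo3* higher, *Sfrp4* lower), beside 1.73% of all genes. Of these, *Sfrp2* was no longer called with the looser cell filter or TMM scaling (log2 ratio 0.98 in each), nor *Rspo3* with 10 CPM added (0.91). The median log2 ratio of the 10 genes was 0.17 at 7 dpf and of the 9 genes 0.13 at 4 dpf, against -0.04 and 0.02 over all genes. The *Wif1* call rests on low levels, from 391 UMIs in control and 110 in RA. It was lost with a pseudocount of 10 CPM (log2 ratio -0.44), with classes weighted equally (-0.68) and with tenocyte precursor-like cells added to the sum (-0.66). Osteochondral-like cells, 8.87% of mesenchymal cells in control and 3.70% in RA, held 245 and 81 of these UMIs. Within that class *Wif1* was not called (ratio 0.637, 0.489 to 0.822), whereas in committed progenitors it was called lower in RA. Committed progenitors held 7.40% of all *Wif1* UMIs. In their control library at 7 dpf the 10% of cells with the most held 100% of the UMIs, and the highest cell held 21. The part of the osteochondral-like share in the *Wif1* call was not tested.

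From 4 to 7 dpf, 4 of 10 genes were called in control (*Frzb* and *Wif1* higher, *Sfrp2* and *Sfrp4* lower), beside 3.74% of all genes, and 4 of 10 in RA (*Frzb* and *Sfrp4* higher, *Sfrp1* and *Rspo3* lower), beside 3.43%. *Frzb* was 19.7-fold higher in control (13.7 to 29.3) and 9.37-fold higher in RA (6.45 to 14.2), from 30 and 28 UMIs at 4 dpf, when almost no osteochondral-like cells were present. With classes weighted equally 1 of 10 genes was called in control, and that weighting has no osteochondral-like value because the class is too small at 4 dpf. The comparisons within control, within RA and between them share libraries and are not independent of each other.

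Within single classes at 7 dpf, 5 of 10 genes were called in committed progenitors (2.78% of all genes), 3 of 7 with enough UMIs in cycling mesenchymal-like cells (4.09%), 2 of 8 in fibroblast precursors (3.70%), 1 of 10 in osteochondral-like cells (2.62%), 0 of 8 in fibroblast-like cells (2.47%) and 4 of 9 in tenocyte precursors (2.51%). *Sfrp4* was called higher in RA in 5 of these 6 classes, all but the fibroblast-like cells. In osteochondral-like cells this call rests on 30 UMIs in RA and 21 in control (7.51 and 2.73 CPM). These levels are low, and haematopoietic cells, used as the level of free RNA, had the same direction. In cycling mesenchymal-like cells of the RA library the cell with the most *Sfrp4* held 93 of the 157 UMIs. At 4 dpf, 2 of 8 genes were called in committed progenitors (2.21%), 3 of 7 in cycling mesenchymal-like cells (4.69%), 4 of 8 in fibroblast precursors (4.45%), 2 of 8 in fibroblast-like cells (1.55%) and 3 of 7 in tenocyte precursors (5.77%). *Sfrp4* was called lower in RA in all 5. *Sfrp2* was called higher in RA in 3 of the 5, the cycling, precursor and fibroblast-like cells. In the cycling cells of that RA library the cell with the most *Sfrp2* held 358 of the 1332 UMIs.

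Fibroblast-like cells were also set against committed progenitor-like cells of the same library. At 7 dpf, 2 of 10 genes were called on the mean of the 2 libraries, *Sfrp4* higher in fibroblasts (mean log2 ratio 2.73) and *Frzb* lower (-1.18), beside 5.43% of all genes. The *Frzb* call rests on low levels, with 21 UMIs in control and 20 in RA fibroblasts (1.26 and 0.725 CPM). In the committed progenitors of both libraries the 10% of cells with the most held 100% of the *Frzb* UMIs. *Sfrp4* was 16.6-fold higher in control fibroblasts (14.8 to 18.7) but 2.91-fold in RA (2.78 to 3.04), since committed progenitors of the RA library had 94.4 CPM. *Dkk2* was 4.35-fold and 4.69-fold higher in fibroblasts at 4 dpf in control and RA, 1.62-fold at 7 dpf in control and 0.926-fold in RA.

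The wider Wnt pathway was read from 85 genes in 7 lists. In the mesenchymal sum at 7 dpf 70 of them had enough UMIs, 3 were called higher and 4 lower in RA, beside 2.87% of all genes, and the median log2 ratio was 0.01 against -0.04 over all genes. Of these 7 calls 3 were *Sfrp2*, *Sfrp4* and *Wif1*, and among the 60 Wnt genes other than the 10 described 1 was called higher and 3 lower. Among ligands 1 of 12 was called, *Wnt2*. Among receptors 3 of 23 were called, all lower in RA: *Fzd9*, *Ptk7* and *Lgr6*. None of the 12 targets and feedback genes, the 12 intracellular genes, the 3 secreted agonists or the 2 secretion genes was called at 7 dpf, the target list having a median of -0.16.

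*Wnt2*, a ligand that signals through β-catenin, had the order of libraries seen for *Sfrp4* within each time. In the mesenchymal sum it was at 17.8 CPM in control and 3.48 CPM in RA at 4 dpf, and at 7.92 and 21.1 CPM at 7 dpf. Its level was highest in fibroblast precursor-like cells, at 50.7 and 12.2 CPM at 4 dpf and 28.3 and 54.7 CPM at 7 dpf. The marker *Pi16* of that class had this order within each time too, and its part in the *Wnt2* difference was not tested. *Ptk7*, a coreceptor of signaling without β-catenin, was at 66.0 CPM in control and 30.9 CPM in RA at 7 dpf. *Fzd9*, a receptor that was highest in osteochondral-like cells (95.0 and 74.6 CPM at 7 dpf), was at 12.2 and 3.73 CPM in the sum. Osteochondral-like cells held 730 *Fzd9* UMIs in control and 298 in RA at 7 dpf. They made up 8.87% of mesenchymal cells in control and 3.70% in RA. The part of this class share in the *Fzd9* call was not tested.

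At 4 dpf 57 of the 85 genes had enough UMIs, 3 were called higher and 3 lower in RA, beside 1.73% of all genes, and the median log2 ratio was 0.11 against 0.02. Among the 48 other than those described 1 was called higher and 2 lower. Beside *Sfrp2*, *Rspo3* and *Sfrp4* these were *Lgr5*, a receptor for R-spondins (14.5 CPM in control, 35.1 CPM in RA), *Wnt2* and *Wnt10b* (3.25 and 0.768 CPM). Within fibroblast precursor-like cells *Lgr5* was at 5.03 CPM in control and 30.6 CPM in RA at 4 dpf, and at 5.93 and 2.85 CPM at 7 dpf. *Rspo3* too was highest in the RA library at 4 dpf in this class.

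The most abundant genes of each list by UMIs, which are counted at the 3′ end and not scaled by length, were *Wnt5a*, *Wnt5b*, *Wnt9a*, *Wnt11* and *Wnt2* among ligands, *Ryk*, *Lrp6*, *Ror1*, *Ror2* and *Fzd2* among receptors, and *Tcf7l2*, *Csnk1a1*, *Gsk3b*, *Ctnnb1* and *Tcf7l1* inside the cell. *Myc*, *Znrf3*, *Ccnd1*, *Lgr5* and *Axin2* led the targets, *Rspo3* and *Rspo2* the agonists and *Wls* the secretion genes. *Ctnnb1*, which encodes β-catenin, was at 178 to 215 CPM in the 4 libraries, and *Wnt5b* ranged from 11.2 to 37.9 CPM.

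**Figure D5:**
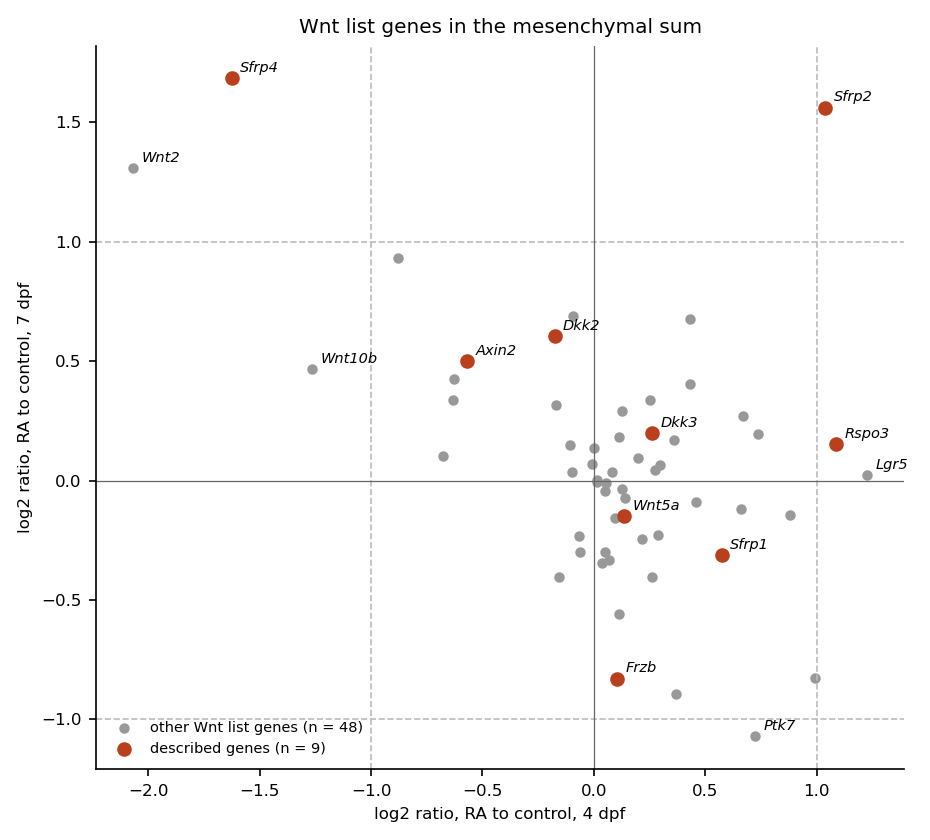
Log2 ratio of RA to control in the mesenchymal sum at 4 dpf (x axis) and 7 dpf (y axis) for the Wnt genes with at least 50 UMIs at both times, 9 described genes in red and 48 others in gray; dashed lines mark 2-fold. *Sfrp4* (-1.63 and 1.68) and *Wnt2* (-2.07 and 1.31) lie past 2-fold in opposite directions, and *Sfrp2* (1.04 and 1.56) past it in the same direction.

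Genes most like each antagonist were found from their levels over 42 sums of a stromal class in a library, among 7154 genes reaching 50 CPM in at least 1 of them. For *Sfrp2* these were *Pdgfra* (Pearson's r = 0.97), *Tspan11* and *Gm26771*, and for *Sfrp4* *Clec3b* (r = 0.95), *Cpz* and *Igfbp6*. *Sfrp1* was most like *Fgf7* (r = 0.91), *Slc1a3* and *Cyp1b1*, *Dkk2* like *Tbc1d2b* (r = 0.87), *Ly6a* and *Mcc*, and *Dkk3* like *Cdh11* (r = 0.96), *Igsf10* and *Cpxm1*. *Frzb* was most like *Proser2* (r = 0.95), *Scube1* and *Wscd2*, and *Wif1* like *Cybrd1* (r = 0.96), *Chad* and *Cilp2*. The 42 sums share 4 libraries and 11 classes, so these values describe likeness only.

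The number of antagonists detected per cell differed between classes. After thinning, fibroblast-like cells carried on average 1.92 of the 7 antagonists in control and 1.96 in RA at 4 dpf, and 1.47 and 1.75 at 7 dpf. Fibroblast precursor-like cells carried 1.65 and 1.85 at 4 dpf, and 1.25 and 1.89 at 7 dpf. Tenocyte precursor-like cells of the RA library at 4 dpf had 0.591, against 1.27 in control. Blood endothelial-like cells had 0.0303 to 0.132 and haematopoietic cells 0.0309 to 0.0860, used here as the background of free RNA.

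On GRCm38, 2 pairs of the genes share a chromosome and lie far apart on it. *Sfrp2* (chr3:83766321-83774316, plus strand) and *Dkk2* (chr3:132085292-132180304, plus strand) are on chromosome 3, and *Wif1* (chr10:121033960-121100650, plus strand) and *Rspo3* (chr10:29452416-29535867, minus strand) are on chromosome 10. *Sfrp4* lies at chr13:19623104-19632994 on the plus strand, *Frzb* at chr2:80411970-80447625 on the minus strand and *Sfrp1* at chr8:23411502-23449632 on the plus strand.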

How the data were processed

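The authors made the deposited UMI counts with Cell Ranger 7.0.1 from 10x Chromium 3′ libraries (chemistry 3.1, 10000 cells loaded per library) against mm10, as a matrix of raw counts per gene and barcode for each of 4 libraries. Every deposited matrix belonged to 1 labelled library, and no column was left unmapped.

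Cells with 4000 to 50000 UMIs, 2000 to 7000 genes and at most 8% mitochondrial UMIs were kept, which gave 83405494 to 156567619 UMIs per library. They were integrated and clustered in Seurat 5.3.0 (R 4.3.3) on 2000 variable genes, from which Wnt genes were left out, with 30 anchor dimensions and 15 principal components, with the resolution increased by 0.1 until 20 clusters or more were found. Of 22 clusters 21 were named from marker lists, by rules (score of at least 1, lead of at least 0.35, at least 3 detected markers and 1 among the 20 leading genes, with 10 CPM added) whose values were set with the clusters in view. The names were rebuilt in this way, so that classes may differ from those of the study. Scrublet (scanpy 1.11.5) called 2.32% of kept cells doublets, which stayed in and were left out as an alternative.

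UMIs were summed per class and library in Python 3.11.15 (numpy 2.4.6, scipy 1.17.1, pandas 2.3.3). Levels carry exact Poisson intervals, shares exact Clopper-Pearson intervals and ratios exact conditional intervals at 95%, and a count of 0 allows up to 3 counts. With 1 library per condition no p-value was computed. The scripts were tested on simulated data. The 10 genes and all lists were chosen with earlier results of these data known. Other genes named were the marker genes, Wnt genes past 2-fold at 7 dpf reaching 20 CPM in either library, the 5 most abundant genes of each Wnt list, and the 3 genes most like a member that reached 100 CPM (Pearson's r of log2 of CPM with 10 CPM added). *Fzd9*, *Lgr6* and *Wnt10b*, the *Lyz2* group and the genes leading clusters were named after their values had been seen. Alternatives changed the clustering genes, integration, resolution, doublets, cell filter, pseudocount, scaling (TMM), class weights, the classes summed and the UMI minimum. Promoter sequences were RefSeq's for GRCm38.p6.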

Additional observations from a re-analysis of the deposited data

Results flagged for a closer look

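Differences between RA and control that ran in opposite directions were picked out for 4 genes, and in each case the difference between the contrasts was not tested, since every contrast rests on 1 library per condition. *Sfrp4* had a log2 ratio of RA to control of 1.68 at 7 dpf and -1.63 at 4 dpf in the mesenchymal sum. *Wnt2* had log2 ratios of 1.31 at 7 dpf and -2.07 at 4 dpf in the same cells.

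*Sfrp2* had a log2 ratio of -1.71 in tenocyte precursor-like cells at 7 dpf, against 1.56 in the mesenchymal sum, and the 10% of those cells with the most held 72.6% of the UMIs in control and 74.4% in RA. *Rspo3* had a log2 ratio of -1.23 in blood endothelial-like cells at 4 dpf, from 83 UMIs in control and 19 in RA, against 1.09 in the mesenchymal sum.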

How the results depend on the processing

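No paired analysis was possible because each condition had 1 library and no result came from a test, and no library could be left out for the same reason. Of 51 alternative counts of the 10 genes past 2-fold, 46 stayed within 1.5 times the reported count, and no called ratio changed sign. The median log2 ratio of the 85 Wnt genes at 7 dpf, reported as 0.01, lay between 0.00071 and 0.07 in 11 alternatives. From 4 to 7 dpf in control, where 4 genes were called, the looser cell filter gave 2 and equal weights for the classes gave 1. From 4 to 7 dpf in RA, also 4, a pseudocount of 10 CPM gave 2. Between fibroblast-like and committed progenitor-like cells, where 2 were called, resolution 1 gave 1 and a pseudocount of 10 CPM gave 1, and neither resolution 0.25 nor the looser filter gave a value. The cause was not tested. The 6 log2 ratios of RA to control past 2-fold stayed past it, in the same direction, in 54 of 60 alternatives. The exceptions were *Wif1* at 7 dpf with 10 CPM added (-0.44), with equal weights (-0.68) and with tenocyte precursor-like cells added (-0.66), *Sfrp2* at 4 dpf with the looser filter (0.98) and with TMM scaling (0.98), and *Rspo3* at 4 dpf with 10 CPM added (0.91). Small ratios that were not called crossed 0 in some alternatives, *Frzb* at 4 dpf between -0.15 and 0.11 and *Wnt5a* at 4 dpf between -0.04 and 0.19. Depth limits *Wif1* (10 UMIs in each mesenchymal sum at 4 dpf) and *Frzb* at 4 dpf.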

Other observations

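A cluster of 148 cells, led by *Apod*, *Tenm2*, *Gpc3* and *Cldn1*, met no rule for a name, and 46.6% of its cells were called doublets. Its 94 cells in the RA library at 7 dpf had *Sfrp2* at 321 CPM, *Sfrp1* at 104 CPM, *Sfrp4* at 105 CPM and *Wif1* at 30.7 CPM. Its 33 cells in the control library at 7 dpf had 173, 138, 45.6 and 7.60 CPM of the same genes. The other libraries held fewer than 20 such cells.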
